A study of Mus musculus with 6 samples.

Results

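The 40 genes described here encode the folding and quality-control machinery of the endoplasmic reticulum (ER): its chaperones and oxidoreductases, the sensors of the unfolded protein response (UPR), and the components of ER-associated degradation (ERAD). They were taken by gene name from a table of 20036 genes, in which all 40 were found, and 39 of them passed the filter on low counts. Transcripts were counted by RNA sequencing in THP-1, a human line from an acute monocytic leukaemia, after PMA (a phorbol ester, 100 ng/ml for 48 h) had turned it into adherent macrophage-like cells sitting below the porous insert of a Transwell. In the melittin group (3 libraries) tumour cells were then placed above the insert, with melittin, the membrane-lytic peptide of bee venom, at 3 µg/ml for 48 h. What the 3 control libraries (labelled NC) received besides PMA, and whether tumour cells were placed above them, is not given in the sources used here, so melittin and the co-culture cannot be told apart. The organism field of the labels reads mouse, but all 20036 gene identifiers in the table are human. All 6 libraries come from 1 cell line and nothing says that they are separate cultures, so a p-value here speaks of differences among libraries that may be technical repeats.

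Proteins bound for the cell surface, for secretion or for lysosomes enter the ER through a membrane channel and fold there with the help of Hsp70- and Hsp90-type chaperones, lectin chaperones that read N-linked glycans, and enzymes that make and shuffle disulfide bonds. Chains that fail to fold are pulled back to the cytosol and degraded by ERAD. The sensors IRE1 (gene ERN1), PERK (EIF2AK3) and ATF6 watch over this balance in the ER membrane and, when unfolded protein accumulates, act through the transcription factors XBP1, ATF4 and the cleaved ATF6 to raise the genes of the machinery. Macrophages draw on it because they secrete cytokines and enzymes in quantity.

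Total counts per library ran from 16001423 to 19597781, and 14195 to 14440 genes had at least 1 count. All 12 markers of macrophages and monocytes were above 1 CPM (a gene's count scaled to a common library size) in every library, with a summed level of 3638 to 3669 CPM in controls and 4464 to 4518 CPM with melittin. The markers moved apart: under the main scaling 6 rose, CTSB with the highest level among them (1261 ± 12.9 to 2469 ± 51.8 CPM), and 5 fell, namely CD163 (7.72-fold lower), MSR1 (7.03-fold), CSF1R (3.07-fold), LYZ (2.51-fold) and CD14 (2.13-fold). Of 14 markers of prostate and other epithelial tumour cells, 6 had 0 counts in all 6 libraries, among them EPCAM, KRT18 and KRT19, where a count of 0 allows up to 0.201 CPM. The part of either marker list in the results was not tested. Less RNA per cell and fewer cells of a type cannot be told apart in such bulk samples.

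Most of the ER genes were higher with melittin, and a smaller group was lower. Of the 39 tested, 29 rose and 9 fell (edgeR quasi-likelihood test, p adjusted by Benjamini-Hochberg over all tested genes and under 0.05), and SELENOS did not pass. Across all 12029 tested genes 76.4% passed, 38.1% higher and 38.3% lower. The 29 that rose are 74.4% of the set and the 9 that fell are 23.1%. The median log2 fold change was 0.32 over the 39 genes and −0.0069 over all tested genes. Against a threshold of 1.5-fold, 9 were higher and 2 lower, 28.2% of the set, where the whole table gave 29.1% (14.6% higher and 14.4% lower). Against 1.2-fold 23 passed (59% of the set, 55.4% of all tested genes), and against 2-fold 3 passed (7.69 and 11.9%). No overlap between control and melittin values was seen in 37 of the 39 genes and in 77.4% of all tested genes. As a group the 40 genes took 0.889 to 0.897% of all counts in the control libraries and 1.10% in each melittin library. HSPA5 alone took 0.0930 to 0.0948% of all counts in the control libraries and 0.251 to 0.258% in the melittin libraries. Most of the group's larger share is thus that of 1 gene.

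The number of genes that rose depends on how libraries are scaled. The main values use TMM scaling, which sets libraries to a common level by the bulk of their genes. When each library was instead divided by its own total (library-total scaling), 19 rose, 11 fell and 9 did not pass. Across all 12029 tested genes that scaling gave 3159 higher and 6244 lower. It moves the median of all genes to −0.24 and the share of higher genes among those called from 49.8% to 33.6%. The distance of the set's median from that of all genes was 0.32 under both scalings. It could hardly differ, since a change of scaling shifts all genes by nearly the same amount. The distance was 0.39 with the trend on gene length removed. It was 0.20 by limma on log2(FPKM + 1), counts divided by gene length and library total. Under all 15 alternatives tried, 17 genes were higher (HSPA5, HSP90B1, SDF2L1, MANF, DNAJB9, DNAJC3, PDIA3, PDIA5, P4HB, ERP29, ERP44, ERO1A, SEC61B, HERPUD1, SYVN1, ERLEC1 and XBP1) and 5 were lower (DNAJC10, UGGT1, OS9, SEL1L and DERL1). The other 17 changed sign or call under at least 1 alternative. The share of all tested genes that kept their call in this way is not given here. These counts are therefore no measure of how the set differs from other genes.

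**Figure D1:**
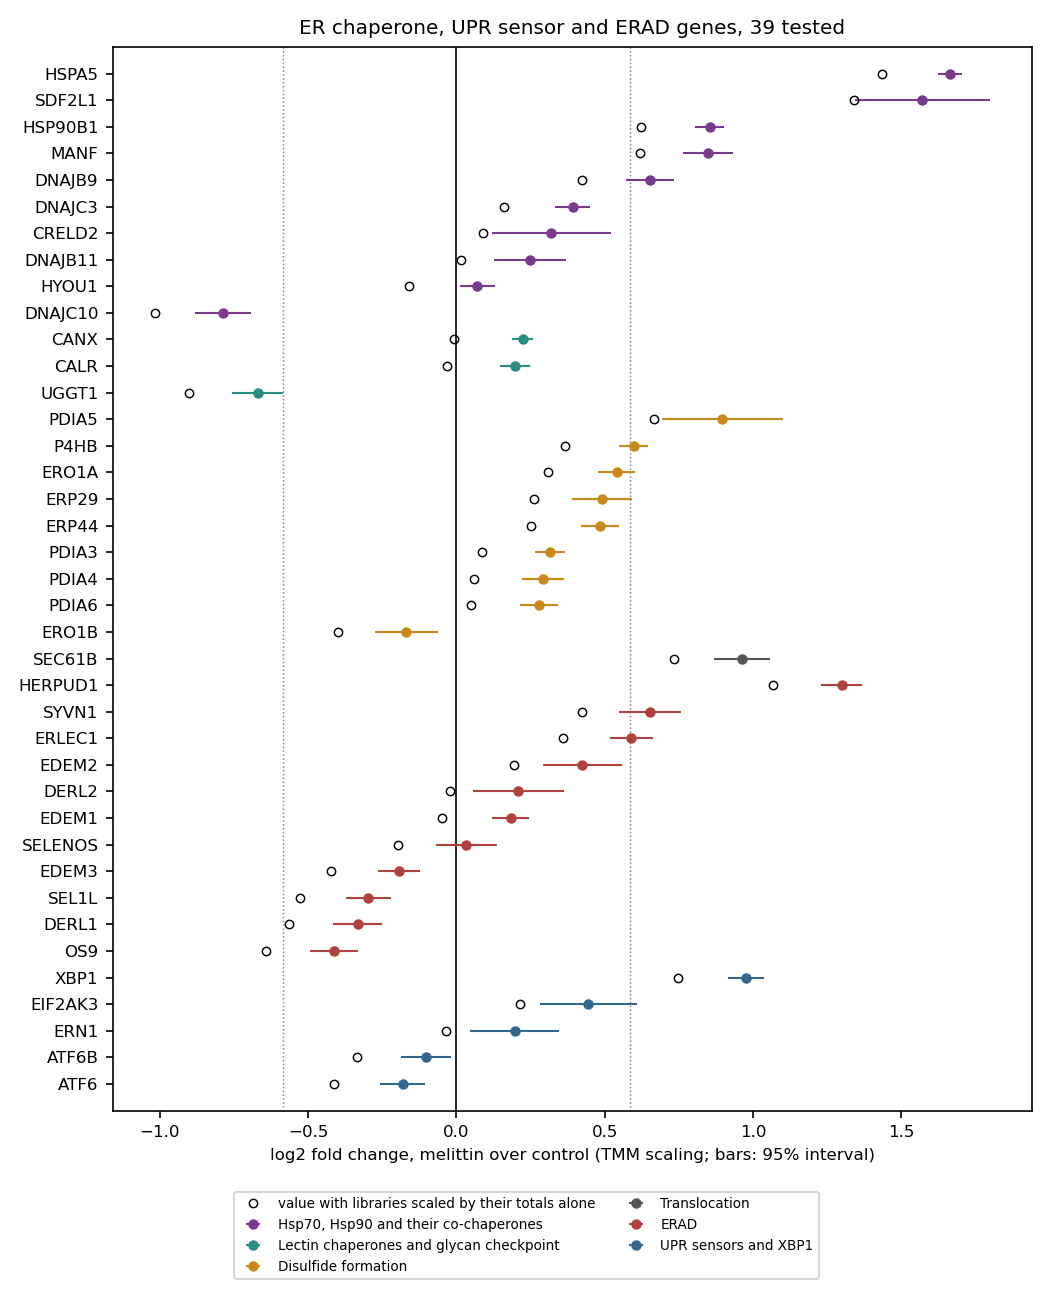
Log2 fold change (melittin over control, x axis) of the 39 tested genes, ordered by role, with bars for the 95% interval; open circles are the values under library-total scaling, and dotted lines mark 1.5-fold. HSPA5 (1.67) and SDF2L1 (1.57) lie farthest to the right and DNAJC10 (−0.79) farthest to the left, and the open circles of CALR, CANX, HYOU1, EDEM1, DERL2, SELENOS and ERN1 lie on the other side of 0 from their filled points.

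The Hsp70 and Hsp90 chaperones of the ER lumen rose, with BiP far ahead of the others. HSPA5, which encodes BiP, the ER Hsp70 that binds unfolded chains and keeps the sensors inactive (chromosome 9, 125234853 to 125241382, minus strand, GRCh38), stood at 858, 874 and 871 CPM in control replicates 1, 2 and 3 and at 2783, 2755 and 2722 CPM in the melittin replicates. Every melittin library was thus more than 3 times as high as any control. The log2 fold change was 1.67 (SE 0.0197, adjusted p = 9.62e-31), or 3.17-fold. HSP90B1, which encodes GRP94, the ER Hsp90 that folds integrins and Toll-like receptors (chromosome 12, 103930107 to 103953931, plus strand), was at 425, 427 and 432 CPM in controls and 763, 781 and 775 CPM with melittin. Its groups were narrow and far apart, and the change was 1.81-fold (log2 0.85, SE 0.0234, adjusted p = 3.05e-22). HYOU1, the large Hsp70 relative that exchanges nucleotide on BiP, was at 209, 201 and 205 CPM in controls and 216, 211 and 219.9 CPM with melittin, next to no distance between the groups. Its log2 fold change of 0.071 (95% interval 0.011 to 0.13, adjusted p = 0.0298) passed in the main comparison and was −0.16, lower, under library-total scaling. HYOU1 no longer passed without control replicate 2 (0.053), control replicate 3 (0.065) or melittin replicate 3 (0.056), nor with no filter on low counts (0.052).

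BiP also took a larger share of the set. HSPA5 made up 10.5, 10.6 and 10.5% of the counts of the 40 genes in the controls and 23.4, 23.2 and 22.8% with melittin, a share that no scaling between libraries touches. CANX, the most counted of the 40 in the controls, went from between 27.2 and 27.6% to between 22.0 and 22.3% of these counts. The FPKM scale divides a count by gene length and library total, so the order of genes on it rests on the lengths given. The length given for HSPA5 is its full span on the chromosome. On the FPKM scale CALR (287 ± 6.12 FPKM, SD, n = 3), CANX (178 ± 1.36 FPKM) and HSPA5 (144 ± 1.36 FPKM) were the 3 highest in controls, in that order. HSPA5 was the highest of the 40 with melittin, at 389 ± 5.31 FPKM, ahead of CALR at 280.4 ± 7.46 and CANX at 177 ± 1.43 FPKM. The FPKM values of CALR overlapped between the groups, as did those of CANX, on this scale that divides each library by its total.

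The partners of BiP moved in both directions. SDF2L1, which holds misfolded chains in solution together with a J protein of the lumen (chromosome 22, 21642302 to 21644299, plus strand), was low, at 6.44, 6.78 and 7.62 CPM in controls, and stood at 23.3, 21 and 17.4 CPM with melittin. The melittin libraries were the more spread out of the groups (SD 3.01 against 0.609 CPM) but all lay above every control, with a change of 2.97-fold (log2 1.57, SE 0.111, adjusted p = 6.01e-13). MANF, a secreted ER protein that binds BiP, averaged 62.7 ± 0.966 CPM in controls and 113 ± 5.17 CPM with melittin (mean ± SD of 3), which is 0.85 on the log2 scale. DNAJB9, a J protein that hands substrates to BiP and holds IRE1 in check, rose by 0.65 and DNAJC3, the J protein also known as P58IPK, by 0.39 on the log2 scale. DNAJC3 had the second highest FPKM values of the 10 genes of this group in controls, at 42.5, 42.6 and 45.5 FPKM, and reached 48.5, 49 and 48.3 FPKM with melittin. DNAJB11, the J protein ERdj3, went from 43.4 ± 1.03 to 51.7 ± 5.05 CPM (log2 0.25) and CRELD2, an ER protein with disulfide isomerase activity, from 10.3 ± 0.48 to 12.9 ± 0.273 CPM (log2 0.32), and neither passed under library-total scaling (0.017 and 0.089).

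DNAJC10 went against the rest of its group. It encodes ERdj5, a reductase that breaks disulfide bonds in chains headed for degradation (chromosome 2, 182716255 to 182794464, plus strand), and stood at 143, 148 and 151 CPM in controls and 91.7, 76.4 and 89.4 CPM with melittin. The highest melittin library was below the lowest control, and the gene fell by 0.79 on the log2 scale (SE 0.046, adjusted p = 8.92e-15), or 1.72-fold. It was the gene of the set with the largest fall, and it also fell by between 0.49 and 1.02 under every alternative. Of the 10 genes in this group 9 rose, 1 fell and 5 were past 1.5-fold upward. Across all tested genes these shares were 38.1, 38.3 and 14.6%. Under library-total scaling 6 of the 10 rose, 2 fell and 2 did not pass.

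**Figure D2:**
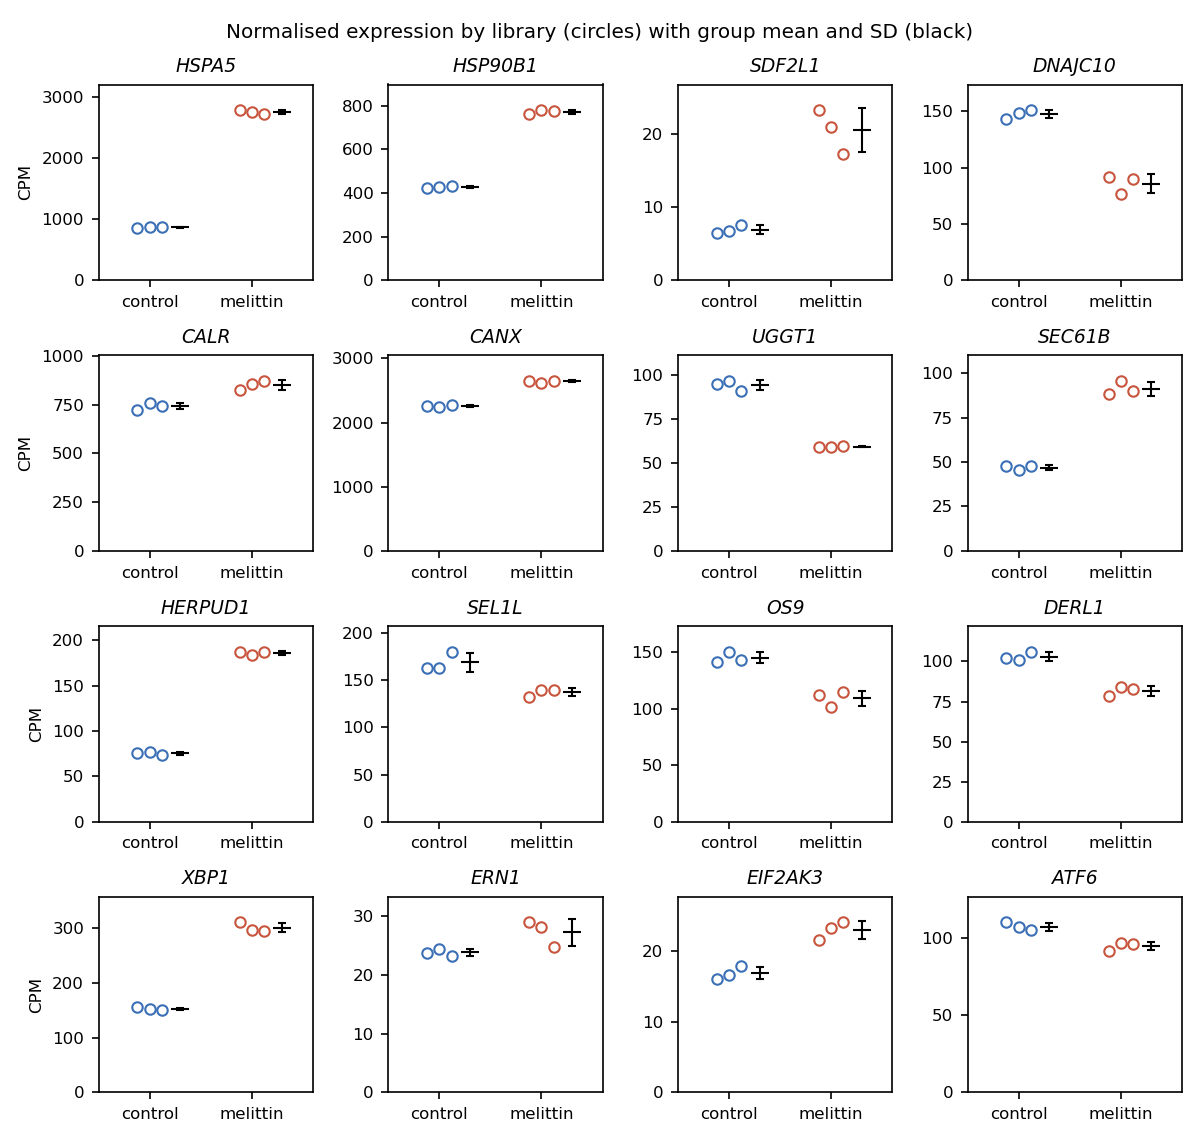
Normalised expression (CPM, y axis from 0) of 16 of the genes in each control and melittin library (circles), with the mean and SD of each group in black. HSPA5, HSP90B1, SDF2L1, SEC61B, HERPUD1, XBP1, CALR, CANX, ERN1 and EIF2AK3 are higher in every melittin library than in any control. DNAJC10, UGGT1, SEL1L, OS9, DERL1 and ATF6 are lower in every melittin library than in any control. No overlap was also seen in 77.4% of all tested genes. The melittin libraries are spread for SDF2L1 (17.4 to 23.3 CPM) and DNAJC10 (76.4 to 91.7 CPM).

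The lectin chaperones changed little, and the enzyme that sends glycoproteins back to them fell. CALR encodes calreticulin, the soluble lectin chaperone of the lumen, and its levels were 725, 756 and 743 CPM in controls and 824, 857 and 872 CPM with melittin. CANX encodes its membrane-bound counterpart calnexin and was at 2265, 2241 and 2279 CPM in controls and 2648, 2623 and 2651 CPM with melittin. In both genes the melittin libraries lay just above the controls. Their log2 fold changes of 0.20 and 0.22 passed in the main comparison (adjusted p = 3.91e-08 and 7.19e-12) and were −0.032 and −0.0076, with no call, under library-total scaling, which left 0 of the 3 genes of this group higher and UGGT1 lower. CALR also lost its call with the trend on gene length removed (0.032). UGGT1, the sensor that puts a glucose back on the glycan of a misfolded protein so that calnexin and calreticulin bind it again (chromosome 2, 128091200 to 128195677, plus strand), was at 95.2, 97 and 91.3 CPM in controls and 59.4, 59.1 and 59.9 CPM with melittin. The melittin libraries were nearly equal and all lay far below the controls, a fall by 0.67 on the log2 scale (SE 0.0418, adjusted p = 3.85e-14). UGGT1 and DNAJC10 were the 2 genes of the set lower past 1.5-fold (adjusted p = 0.0261 and 8.51e-05 by glmTreat).

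Of the 9 genes of disulfide formation 8 rose and 1 fell, most by less than 1.5-fold. That is 88.9 and 11.1%, against 38.1 and 38.3% of all tested genes. P4HB, which encodes protein disulfide isomerase itself (chromosome 17, 81843159 to 81860856, minus strand), stood at 496, 490.5 and 504 CPM in controls and 743, 741 and 772 CPM with melittin. All melittin values were well above the controls, 0.60 on the log2 scale (SE 0.0242, adjusted p = 2.19e-18), short of a call against 1.5-fold (adjusted p = 0.332). PDIA3, the isomerase that works with calnexin and calreticulin, went from 466, 462 and 473 to 569, 589 and 587 CPM, a log2 fold change of 0.32 and of 0.085 under library-total scaling. PDIA5 was a low transcript at 10.5, 11.3 and 8.43 CPM in controls and 18.9, 18.9 and 18.9 CPM with melittin. It was the 1 gene of this group past 1.5-fold, higher by 0.90 on the log2 scale (SE 0.0993, adjusted p = 5.26e-09). The span of PDIA5 overlaps that of SEC22A on the same strand by 23301 bases, and SEC22A was at 0.056 on the log2 scale (adjusted p = 0.724), and how reads in the shared stretch were assigned was not tested.

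The remaining isomerases and thioredoxin-fold proteins rose by smaller steps. ERP29 and ERP44, thioredoxin-fold proteins of the early secretory pathway, had log2 fold changes of 0.49 and 0.48. PDIA4 (0.29) and PDIA6 (0.28), the latter known to attenuate IRE1, rose in the main comparison and did not pass under library-total scaling (0.06 and 0.048). The oxidases that recharge protein disulfide isomerase parted. ERO1A went from 144, 152 and 152 CPM to 215, 216 and 221 CPM (log2 0.54). ERO1B went from 51.4, 49.5 and 48.6 to 45.5, 44.6 and 42.9 CPM (log2 −0.17, adjusted p = 0.00459). ERO1A is the form also induced by hypoxia. The fall of ERO1B did not hold with the trend on gene length removed (0.058), and its span overlaps GPR137B on the opposite strand by 7185 bases, a gene that fell by 0.46 on the log2 scale. Whether the overlap plays a part was not tested.

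SEC61B, the beta subunit of the channel through which chains enter the ER (chromosome 9, 99222064 to 99230615, plus strand), was at 47.5, 45.3 and 47.7 CPM in controls and 88.1, 95.7 and 89.8 CPM with melittin. The groups lay far apart, and the change was 1.95-fold (log2 0.96, SE 0.0461, adjusted p = 9.87e-17). At 1209 bases it was among the shortest of the 40 genes, and the change was 0.53 with the trend on gene length removed.

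ERAD genes divided into those that rose and those that fell. Of 11 tested, 6 rose (54.5%), 4 fell (36.4%) and SELENOS did not pass, and 1 was past 1.5-fold (9.09%). Across all tested genes 38.1% rose, 38.3% fell and 29.1% were past 1.5-fold in either direction. Under library-total scaling 4 of the 11 ERAD genes rose and 5 fell. HERPUD1, which encodes a ubiquitin-like membrane protein that assembles the degradation complex (chromosome 16, 56932142 to 56944864, plus strand), stood out: it was at 75.7, 77.2 and 73.8 CPM in controls and 188, 184 and 187 CPM with melittin. No melittin library was less than 2 times as high as a control, and the change was 2.46-fold (log2 1.30, SE 0.0335, adjusted p = 7.59e-23). HERPUD1 is a target of all the branches of the UPR.

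The retrotranslocation complex built around the ubiquitin ligase HRD1 shifted unevenly. SYVN1, which encodes HRD1 (chromosome 11, 65121780 to 65134532, minus strand), went from 48.6, 51.7 and 46.4 CPM to 79.2, 79.8 and 72 CPM, 0.65 on the log2 scale (SE 0.0508, adjusted p = 4.27e-12). Its scaffold SEL1L went from 163, 163 and 180.4 to 132, 139 and 139.9 CPM (log2 −0.30, adjusted p = 5.47e-08). The ligase transcript was thus higher and the scaffold transcript lower in every melittin library than in any control. SYVN1 overlaps MRPL49 on the opposite strand by 5189 bases and FAU on its own strand by 398 bases, genes with log2 fold changes of 0.71 and 0.86, and whether reads were shared was not tested. DERL1, a rhomboid-like protein of the retrotranslocation channel, went from 102, 101 and 106 to 78.2, 83.9 and 83 CPM (log2 −0.33). Its relative DERL2 was higher by 0.21 on the log2 scale (adjusted p = 0.0139), which was −0.022 under library-total scaling and did not pass without control replicate 3 (0.18) or melittin replicate 3 (0.18). DERL3, with 4, 6 and 7 counts in controls and 2, 7 and 7 with melittin, was too low to test. SELENOS, the selenoprotein that recruits the p97 segregase, was at 53.4, 49.5 and 51.3 CPM in controls and 53.3, 53 and 51.4 CPM with melittin (log2 0.034, 95% interval −0.068 to 0.14, adjusted p = 0.542), and under library-total scaling it was lower (−0.20).

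The lectins and mannosidase-like proteins that pick out glycoproteins for degradation also parted. ERLEC1 rose from 85.1, 85.8 and 84.1 to 131, 125 and 128 CPM (log2 0.59). OS9, the other glycan-reading lectin of the same complex, went from 141, 151 and 143 to 112, 102 and 115 CPM (log2 −0.41). All melittin values of ERLEC1 were above, and all of OS9 below, those of the controls. ERLEC1 lies within the span of ASB3 on the opposite strand (overlap of 46030 bases, ASB3 log2 fold change 0.73), and OS9 overlaps AGAP2 by 4582 bases (0.21), and whether reads were shared with these neighbours was not tested. EDEM1, EDEM2 and EDEM3 trim or recognise mannose on chains to be degraded. EDEM1 had the highest FPKM value of the ERAD genes in controls (26.1 ± 0.584 FPKM). Its levels of 163, 166 and 159 CPM in controls and 181, 185 and 187 CPM with melittin gave a log2 fold change of 0.18, which was −0.049 under library-total scaling. EDEM2 had a log2 fold change of 0.42 and EDEM3 of −0.19. With the trend on gene length removed neither passed (0.12 and 0.066).

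Among the sensors EIF2AK3 rose 1.36-fold and the others changed little, while XBP1 nearly doubled. XBP1, whose message IRE1 splices to make an active transcription factor (chromosome 22, 28794555 to 28800597, minus strand), was at 155, 152 and 150.5 CPM in controls and 310.1, 296 and 294 CPM with melittin. Every melittin value was close to 2 times the control level, 0.98 on the log2 scale (SE 0.0294, adjusted p = 2.58e-21). Counts per gene do not separate the spliced from the unspliced form, so the change is that of both together. Of the 5 genes of this group 3 rose and 2 fell, 60 and 40%, against 38.1 and 38.3% of all tested genes.

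ERN1 was at 23.8, 24.4 and 23.2 CPM in controls and 28.9, 28.2 and 24.7 CPM with melittin, with melittin replicate 3 barely above the highest control. Its log2 fold change of 0.20 (95% interval 0.047 to 0.35, adjusted p = 0.0166) did not pass without control replicate 3 (0.18), melittin replicate 1 (0.15) or melittin replicate 2 (0.17), and was −0.034 under library-total scaling. EIF2AK3, the PERK kinase that phosphorylates the initiation factor eIF2 alpha, went from 16.1, 16.7 and 17.8 to 21.5, 23.2 and 24 CPM, 0.45 on the log2 scale (SE 0.0799, adjusted p = 1.50e-05) with no overlap between the groups. It was 0.21 under library-total scaling and 0.10, with no call, by limma on log2(FPKM + 1), a scale that shrinks changes of genes near 1 FPKM such as this one. ERN1 and EIF2AK3 had the lowest FPKM values of the 39 tested genes (1.35 ± 0.0355 and 0.883 ± 0.0462 FPKM in controls).

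ATF6 and ATF6B, membrane-held transcription factors that are cut free in the Golgi, were both slightly lower. ATF6 was at 110.4, 107 and 105 CPM in controls and 91.7, 96.7 and 96.1 CPM with melittin (log2 −0.18, SE 0.0375, adjusted p = 9.51e-05). This fall did not hold with the trend on gene length removed (0.034). ATF6B was at 114, 114 and 117 CPM in controls and 116, 101 and 106 CPM with melittin, and the groups overlapped, since melittin replicate 1 lay among the controls. Its log2 fold change of −0.10 (adjusted p = 0.0255) was not called with DESeq2 and did not pass without control replicate 3 (−0.096), melittin replicate 2 (−0.055) or melittin replicate 3 (−0.096). The end of TNXB overlaps it by 71 bases on the same strand.

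Ratios between related genes within a library do not depend on the scaling between libraries, and 10 pairs, chosen after the values were seen, were compared on them. The HSPA5 to HSP90B1 ratio of FPKM values was 4.05, 4.11 and 4.04 in controls and 7.31, 7.07 and 7.04 with melittin, and that of HSPA5 to HYOU1 was 4.28, 4.54 and 4.44 and 13.5, 13.6 and 12.9. BiP transcripts thus went up relative to both of these partners. The SYVN1 to SEL1L ratio went from 0.518, 0.551 and 0.447 to 1.04, 0.995 and 0.895, that of ERLEC1 to OS9 from 0.319, 0.301 and 0.311 to 0.622, 0.651 and 0.592, and that of ERO1A to ERO1B from 5.7, 6.25 and 6.38 to 9.6, 9.86 and 10.5. The ratios of EDEM2 to EDEM1, EDEM2 to EDEM3 and DERL2 to DERL1 were 1.18-fold, 1.53-fold and 1.46-fold higher. The CALR to CANX ratio (1.57, 1.66 and 1.6 in controls, 1.53, 1.6 and 1.62 with melittin) and the ATF6B to ATF6 ratio (4.08, 4.19 and 4.39 and 4.96, 4.09 and 4.34) overlapped. No test of these ratios is given, since the pairs were picked from their values.

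**Figure D3:**
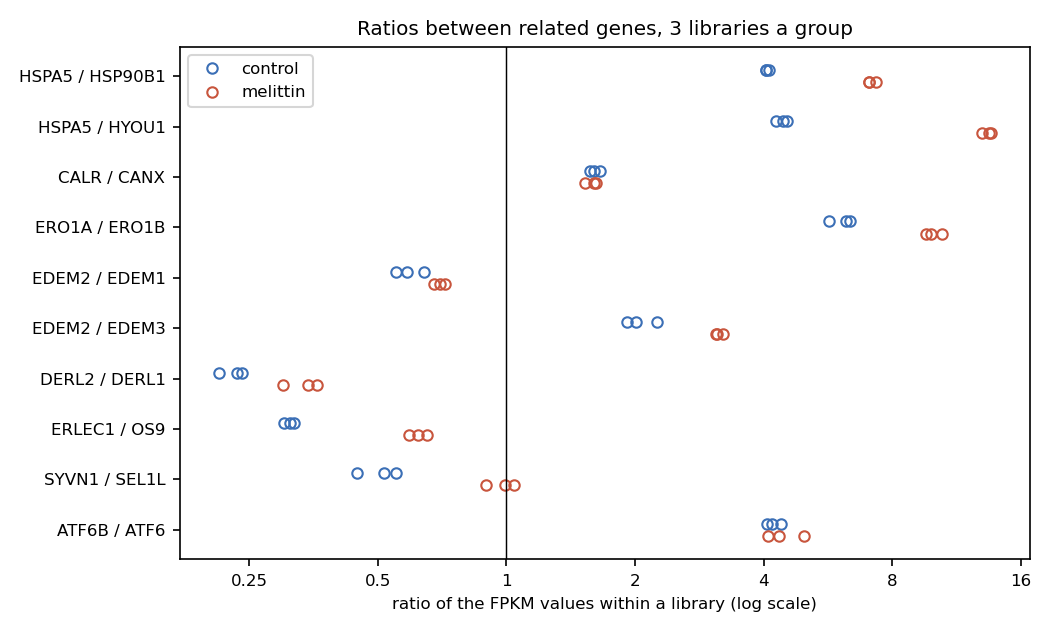
Ratios of FPKM values between 10 pairs of related genes within each library (x axis, log scale; 3 control and 3 melittin libraries a pair). The pairs were picked from their values; the HSPA5 to HYOU1 ratio moves from between 4.28 and 4.54 to between 12.9 and 13.6, and the groups overlap for CALR to CANX and ATF6B to ATF6.

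Gene length went along with the changes. Over the 39 genes the log2 fold change and the length in the table had a Spearman correlation of −0.45, and over all 12029 tested genes one of −0.18. These points share the same 6 libraries and the same scaling. Of the 20 shorter genes (1059 to 6737 bases) 18 rose and 1 fell, with a median log2 fold change of 0.46, and of the 19 longer ones (6825 to 25053 bases) 11 rose and 8 fell, with a median of 0.20. Over all tested genes in 8 length classes, the median ran from 0.24 in the shortest class to −0.20 in the longest. The share of all genes called in each class is not given here. DNAJC10, the longest of the set, fell most. HSP90B1 (13092 bases), P4HB (11132 bases), ERP44 (14212 bases) and ERLEC1 (16419 bases) were long and rose. With the trend on length removed 27 rose and 6 fell, where all tested genes gave 4618 higher and 4540 lower. No other test of length was made.

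**Figure D4:**
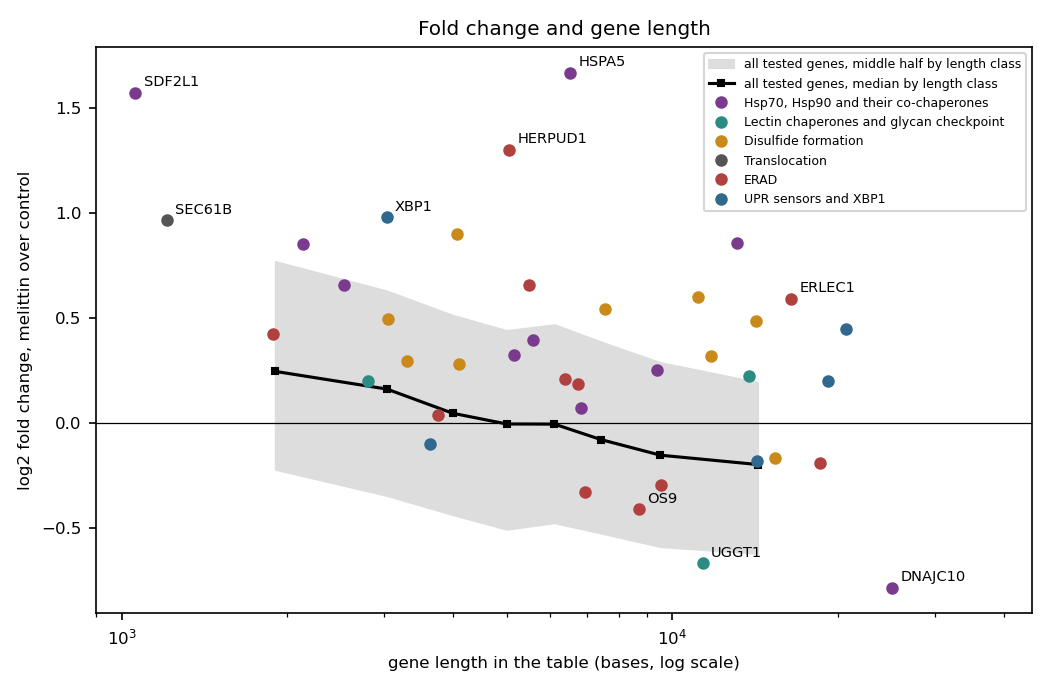
Log2 fold change (y axis) against gene length (x axis, log scale) for the 39 tested genes, coloured by role, over the median and middle 50% of all tested genes in 8 length classes. The median of all genes runs from 0.24 in the shortest class to −0.20 in the longest. HSPA5 and HERPUD1 lie well above the grey band, and UGGT1 lies just below it. The band begins at 1902 bases, and SDF2L1 (1059 bases, log2 fold change 1.57) lies to the left of it.

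Other genes of the pathway, in lists outside the 40, were counted in the same comparison. Of 124 tested, 72 rose and 24 fell, 58.1 and 19.4%, with a median log2 fold change of 0.28. Across all tested genes 38.1% rose and 38.3% fell. In either direction 77.4% of the 124 passed, near the 76.4% of all tested genes. Past 1.5-fold were 28.2%, near the 29.1% of all tested genes. Under library-total scaling 51 of these 124 rose and 48 fell, where all tested genes gave 3159 higher and 6244 lower. The effectors of the PERK arm had the highest share that rose: 9 of 11 rose and EIF2S1, the eIF2 alpha subunit that PERK phosphorylates, fell by 0.63 on the log2 scale. Under library-total scaling 7 rose and 3 fell. DDIT4, an inhibitor of mTOR signalling, went from 52.6, 55.5 and 60.5 to 241, 239 and 231 CPM (log2 2.08, adjusted p = 6.13e-26), and CEBPB, a myeloid transcription factor, had a log2 fold change of 0.88. ATF4 itself (0.64) and DDIT3, which encodes CHOP (1.91), both named after their values were seen, rose from 345 ± 1.45 to 538 ± 14.2 CPM and from 9.67 ± 0.365 to 36.3 ± 2.35 CPM. The list did not rise evenly: 1 of its 11 tested genes did not pass. Past 1.5-fold were 6 of the 11 (54.5%, against 29.1% of all tested genes).

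Regulators and partners of the sensors were mixed, with 7 of 14 higher and 4 lower (50 and 28.6%, against 38.1 and 38.3% of all tested genes). Under library-total scaling 4 were higher and 7 lower. The subunits of NF-Y, the factor that binds the ER stress element together with ATF6, went opposite ways: NFYA rose from 60.9, 61.8 and 57.5 to 136, 121 and 130.4 CPM (log2 1.10), and NFYB and NFYC fell by 0.66 and 0.28 on the log2 scale. CREBZF, a leucine zipper protein that binds CREB3, rose by 1.01. In the list of translocation and signal peptide genes 15 of 23 rose and 3 fell (13 and 9 under that scaling). The receptor subunit SRPRA (0.93) and the channel subunit SEC61A1 (0.79) rose beside SEC61B, and the signal peptidase subunits SPCS3 (−0.61) and SEC11C (−2.04) fell. SEC11C, a catalytic subunit, was at 23.7, 20.2 and 22 CPM in controls and 5.27, 6.45 and 4.15 CPM with melittin.

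Genes of N-glycosylation rose in 13 of 17 cases and 1 fell (9 and 4 under library-total scaling). In the main comparison that is 76.5 and 5.88%, against 38.1 and 38.3% of all tested genes. Among those that rose were LMAN1, the cargo receptor for glycoproteins (0.96), and STT3A, a catalytic subunit of the oligosaccharyltransferase (0.69). RPN2 fell by 0.083. Among further folding factors 14 of 31 rose and 8 fell (12 and 10 under that scaling). KDELR2, a receptor that returns escaped chaperones to the ER, went from 178, 179.7 and 181 to 383, 383 and 376 CPM (log2 1.09) and CALU, a calcium-binding protein, rose by 0.93, whereas the membrane thioredoxin-like proteins TMX1 and TMX3 fell by 0.88 and 0.43. KDELR3, a sister receptor named after its values were seen, went from 2.07, 1.74 and 2.08 to 20.2, 18.9 and 16.3 CPM (log2 3.23, SE 0.137, adjusted p = 6.36e-18), the largest rise in these lists. Further ERAD factors rose in 14 and fell in 7 of 28 cases, and in 6 and 15 under library-total scaling, with UBXN6 (0.89) and MARCHF6 (0.27, and 0.039 with no call under that scaling) higher and ERLIN2 (−0.68) lower. The medians of the lists ran from 0.051 for the sensor partners to 0.64 for the PERK arm.

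**Figure D5:**
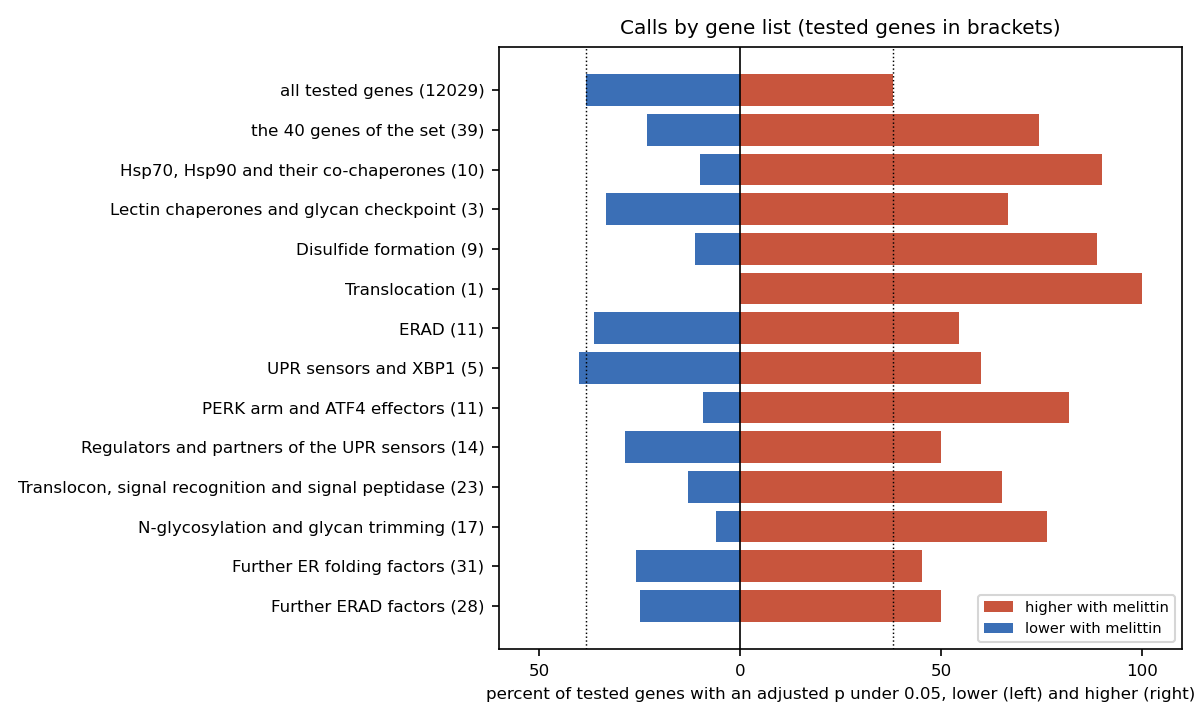
Percent of tested genes with an adjusted p under 0.05 that were higher (right, red) or lower (left, blue) with melittin, in all tested genes, in the 40 genes and their roles, and in the 6 lists of other ER genes; dotted lines carry the shares of all tested genes (38.1 and 38.3%) down the plot. Under library-total scaling the split changes, to 19 higher and 11 lower in the set. All tested genes gave 3159 higher and 6244 lower under that scaling. As in the whole table, more genes were then lower than higher among the lectin chaperones, ERAD genes, further ERAD factors and sensor partners.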

How the data were processed

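RNA was sequenced from 3 control and 3 melittin libraries of PMA-treated THP-1 cells, and the authors deposited a table of counts per gene and, per the file headers, FPKM values (counts scaled by gene length and library total) for 20036 human genes. The submitters' processing notes name the build GRCh38; the sources used here name neither the counter nor its strand setting. The deposited FPKM values follow from the deposited counts, lengths and library totals to within a relative 2.2e-09.

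Counts were fitted in R 4.3.3 with edgeR 4.0.16 (filterByExpr, TMM, glmQLFit, glmQLFTest; glmTreat against 1.5-fold), 12029 genes were tested, and p-values were adjusted by Benjamini-Hochberg over all of them at 0.05. CPM values use TMM-scaled libraries, and SE is the log2 fold change divided by the square root of F. Alternatives used DESeq2 1.42.0, limma 3.58.1, other scalings and filters, a length correction and leaving out each library. Scripts were tested on simulated data. With 16001423 to 19597781 counts per library, the least depth allows a count of 0 to stand for up to 0.201 CPM, a limit of counting error only.

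The members and lists were chosen with earlier results of these data known. Genes outside the 40 were named by rule: in each list, the 2 called genes with the smallest adjusted p in each direction, so that larger changes with larger p are not among them; others are markers, genes that overlap a member, or marked as named after their values were seen. A few genes outside the 40 that the lists hold are not reported here. Promoter and protein sequences were not used here.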

Additional observations from a re-analysis of the deposited data

How the results depend on the processing

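Under library-total scaling 19 genes of the set rose, with a median log2 fold change of 0.085, 48 of the other ER genes fell, and the log2 fold changes of HYOU1 (−0.16), CALR (−0.032), CANX (−0.0076), EDEM1 (−0.049), DERL2 (−0.022), SELENOS (−0.20) and ERN1 (−0.034) turned negative; that scaling moves the median of all genes by itself. With limma on log2(FPKM + 1), values scaled by totals in the same way, 18 rose with a median of 0.063, 50 of the other ER genes fell, and the values were −0.15 for HYOU1, −0.032 for CALR, −0.0075 for CANX, −0.046 for EDEM1, −0.014 for DERL2, −0.18 for SELENOS and −0.021 for ERN1. Over all tested genes limma on log2(FPKM + 1) gave 3096 higher and 6156 lower, with a median of −0.14. Library-total scaling gave 3159 higher and 6244 lower over all tested genes. With the length trend taken out, the set's median was 0.39, and ERO1B (0.058), EDEM3 (0.066), SELENOS (−0.038) and ATF6 (0.034) changed sign; the cause was not tested. With no filter on low counts the median was 0.29, with DERL3 among the genes tested. Against 1.2-fold 23 genes of the set passed (55.4% of all tested genes did) and against 2-fold 3 (11.9%). Leaving out each library in turn gave 26 to 29 genes higher and 8 to 9 lower, and the replicate block gave 29 and 9 in the set and 9050 calls over all genes, where the fit without it gave 9190; same-numbered libraries did not deviate together (correlations −0.046, 0.018 and −0.019), so the numbers do not pair them. Over all tested genes, leaving out each library gave 4394 to 4552 higher and 4440 to 4595 lower. DESeq2, limma-voom, RLE scaling and a filter at 1 CPM moved no count of the set past 1.5 times. Depth limits DERL3, which was too low to test, more than any other gene of the set.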
